A study of Mus musculus with 24 samples.

Results

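Monocytes of the mouse are divided into a classical and a non-classical subset, and 10 genes that mark these subsets were followed here through 4 kinds of tissue-resident macrophage. The 10 were chosen by gene name among the 55487 genes of the deposited count table, and all 10 were found in it. The classical genes were Ly6c2, Ccr2, Plac8, Vcan, F13a1 and Fn1 (6 genes), and the non-classical genes were Ace, Treml4, Pglyrp1 and Spn (4 genes). Expression was measured by bulk RNA sequencing of 24 libraries in 8 groups of 3: lung alveolar macrophages, liver Kupffer cells, brain microglia and splenic macrophages, each from mice of the genotype Z165KO (KO here) and from wildtype mice (WT). Each library was made from the RNA of 100000 sorted macrophages. The labels do not describe the Z165KO allele, the sorting gate, the age of the mice or the strandedness of the libraries, and the study's title concerns the expression of Zeb2, a transcription factor. Nor do they say whether the 3 libraries of a group came from different mice, so the p-values here reflect variation among these libraries only, and that variation may be technical.

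Classical monocytes leave the bone marrow through the chemokine receptor Ccr2, carry Ly6C on their surface and enter inflamed tissue. Non-classical monocytes develop from them under the control of Nr4a1, lose Ly6C and patrol the inner wall of blood vessels. Most tissue macrophages are seeded before birth and are then replaced from blood monocytes to a degree that differs between organs. In bulk samples such as these, fewer cells of a type and less RNA per cell cannot be told apart.

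Total counts per library ranged from 50449347 to 65981787, so 1 CPM (a count scaled to the library total, as deposited) stands for 50 to 66 counts. Markers of the labelled cell type were all detected in its own libraries: none of the 9 alveolar, 8 Kupffer, 8 microglial or 8 splenic genes was at 0 in its type. Detection alone does not tell the types apart, since the splenic genes, Treml4 among them, were also all detected in alveolar and Kupffer libraries. Their summed level averaged 27891 CPM in splenic WT, 8005 CPM in Kupffer WT and 241 CPM in alveolar WT libraries. Part of this was Hba-a1, also a marker of erythroid cells, with means of 3568, 22.6 and 1.75 CPM in the same order. Zeb2 had 126 to 142 CPM in alveolar KO libraries, against 190 to 297 CPM in alveolar WT libraries, and its KO and WT ranges overlapped in the other 3 cell types. B-cell transcripts differed with genotype in 3 cell types: the summed level of 11 B-cell markers was 6.42 to 9.16 CPM in alveolar KO and 78.8 to 169 CPM in alveolar WT libraries, 50.3 to 122 CPM in Kupffer KO and 675 to 1118 CPM in Kupffer WT libraries, and 65.7 to 116 CPM in splenic KO and 1202 to 1776 CPM in splenic WT libraries. In microglia the same sum was 493 to 657 CPM in KO and 557 to 689 CPM in WT libraries. Nearly all of it was Ighm, with a mean of 560 CPM in KO and 587 CPM in WT. Of the 11 markers, 8 in KO and 9 in WT averaged under 1 CPM in microglia.

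The genes lie on 8 chromosomes of the mm10 build. Ly6c2 (ENSMUSG00000022584) is at chr15:75108158-75111970 on the minus strand, in a cluster of related Ly6 genes. Ccr2 (ENSMUSG00000049103) is at chr9:124101950-124113557 on the plus strand. Plac8 (ENSMUSG00000029322) is at chr5:100553725-100572245 on the minus strand. On chromosome 13, Vcan (ENSMUSG00000021614) is at chr13:89655312-89742509 and F13a1 (ENSMUSG00000039109) is at chr13:36867178-37050244, both on the minus strand. Fn1 (ENSMUSG00000026193) is at chr1:71585520-71653200 on the minus strand. Ace (ENSMUSG00000020681) is at chr11:105967945-105989964 and Treml4 (ENSMUSG00000051682) at chr17:48264295-48275360, both on the plus strand. On chromosome 7, Pglyrp1 (ENSMUSG00000030413) is at chr7:18871331-18890459 on the plus strand and Spn (ENSMUSG00000051457) at chr7:127132232-127137823 on the minus strand. Vcan, F13a1, Fn1 and Ace each overlap a gene annotated on the opposite strand, and without known strandedness the reads of such partners cannot be told apart.

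Promoter windows of 250 bases before the start were available for 9 of the 10 genes. The windows of Plac8, Ace, Treml4 and Pglyrp1 are shown because results below turn on the first 3, and because the last held more than 1 kind of searched motif. They are RefSeq sequences of GRCm38.p6, the mm10 build, printed in the direction of transcription. Capitals mark GAGGAA, the core bound by the macrophage factor PU.1, or its complement TTCCTC. In Pglyrp1 they also mark the complement CAGGTG of CACCTG, an E-box bound by ZEB factors.
Plac8, chr5:100572206-100572455, minus strand: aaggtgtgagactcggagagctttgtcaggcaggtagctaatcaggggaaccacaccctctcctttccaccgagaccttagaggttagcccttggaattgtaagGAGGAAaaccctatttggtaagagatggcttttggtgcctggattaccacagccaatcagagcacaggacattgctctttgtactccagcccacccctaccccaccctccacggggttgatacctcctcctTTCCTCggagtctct
Ace, chr11:105967698-105967947, plus strand: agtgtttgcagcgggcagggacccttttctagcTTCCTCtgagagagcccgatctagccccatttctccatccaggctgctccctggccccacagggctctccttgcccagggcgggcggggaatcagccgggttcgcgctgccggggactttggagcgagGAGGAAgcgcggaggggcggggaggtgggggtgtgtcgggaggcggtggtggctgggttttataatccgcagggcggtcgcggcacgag
Treml4, chr17:48264045-48264294, plus strand: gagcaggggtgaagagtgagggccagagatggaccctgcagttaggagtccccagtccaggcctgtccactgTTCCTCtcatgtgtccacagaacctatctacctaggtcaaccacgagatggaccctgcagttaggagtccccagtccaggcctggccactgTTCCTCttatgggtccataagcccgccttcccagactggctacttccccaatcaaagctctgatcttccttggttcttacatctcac
Pglyrp1, chr7:18884440-18884689, plus strand: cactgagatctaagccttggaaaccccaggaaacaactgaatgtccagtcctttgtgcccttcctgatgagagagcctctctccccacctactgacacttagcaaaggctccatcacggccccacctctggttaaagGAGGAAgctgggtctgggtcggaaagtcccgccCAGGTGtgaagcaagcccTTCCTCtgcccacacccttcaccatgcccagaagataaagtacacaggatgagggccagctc

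GAGGAA was found on either strand in 6 of the 9 windows, namely those of Ly6c2, Plac8, F13a1, Ace, Treml4 and Pglyrp1, and in 23.2% of the 32851 promoter windows of the same length. CACCTG was found in 1 of the 9 and in 17.2% of all windows. TGCTGA, part of the element bound by Maf factors, was found in 0 of the 9 and in 16.1% of all windows. The motifs do not overlap one another in these windows, and the matches describe letters and not occupied sites. The RefSeq start of Pglyrp1 lies 13359 bases from the start in the annotation used for the gene coordinates.

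In WT macrophages, 9 of the 10 genes differed between the cell types (F test over 12 WT libraries, adjusted p at most 0.012), where 52.3% of the 21679 genes tested did so. Vcan was the exception (adjusted p = 0.326). Levels per transcript length are given as TPM, the length-scaled transcript abundance (mean ± SD, n = 3), and neighbouring cell types were compared by pairwise contrasts of the counts. Over all genes these contrasts called 28% between alveolar macrophages and Kupffer cells, 39.8% between alveolar macrophages and microglia, 26.9% between alveolar and splenic macrophages, 32.4% between Kupffer cells and microglia, 16.4% between Kupffer cells and splenic macrophages and 34.9% between microglia and splenic macrophages. Treml4, a receptor of the TREM family known from splenic macrophages and non-classical monocytes, had the highest level of the 10 genes in WT spleen and liver. It averaged 1260.5 ± 127 TPM in splenic macrophages, where it ranked 94 of 29032 genes with a level above 0, 498 ± 100.5 TPM in Kupffer cells, 66.2 ± 13.3 TPM in alveolar macrophages and 0.52 ± 0.505 TPM in microglia. The splenic and Kupffer levels were not separated by the contrast (adjusted p = 0.0506), while Kupffer over alveolar was (adjusted p = 0.00166).

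**Figure D1:**
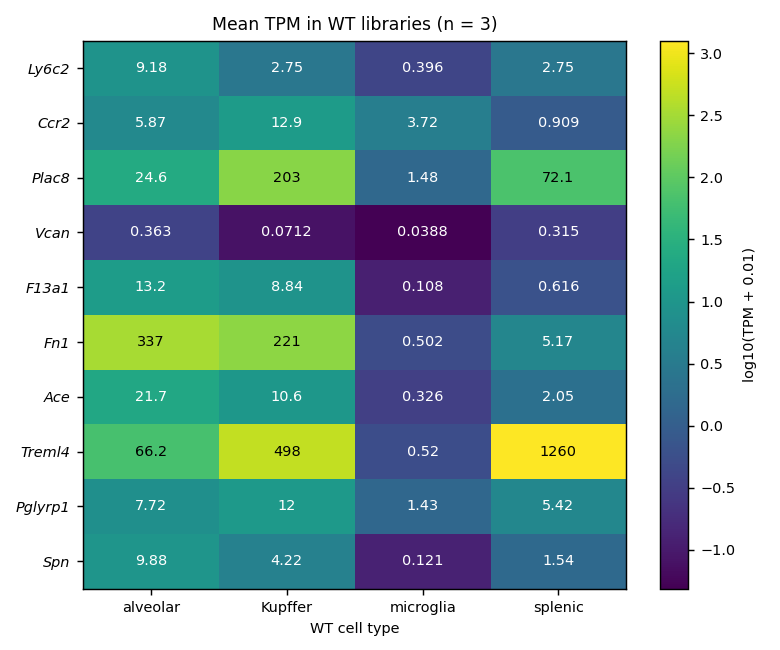
Mean TPM of the 10 genes in the 3 WT libraries of each cell type; rows are genes, columns are cell types, the colour is log10(TPM + 0.01) and the number in each cell is the mean TPM. Treml4 reaches 1260.5 TPM in splenic macrophages and Fn1 337 TPM in alveolar macrophages, and the microglia column holds the lowest value of every gene but Ccr2.

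The other non-classical genes were lower and were spread differently. Ace, the angiotensin-converting enzyme, averaged 21.7 ± 3.49 TPM in alveolar macrophages, 10.6 ± 6.14 TPM in Kupffer cells, 2.05 ± 1.0 TPM in splenic macrophages and 0.326 ± 0.292 TPM in microglia. Neither alveolar over Kupffer (adjusted p = 0.281) nor Kupffer over splenic (adjusted p = 0.0849) passed for Ace, whereas microglia lay below splenic macrophages (adjusted p = 0.0293). Spn, which encodes the sialomucin CD43, averaged 9.88 ± 0.908 TPM in alveolar, 4.22 ± 1.65 TPM in Kupffer, 1.54 ± 1.49 TPM in splenic and 0.121 ± 0.107 TPM in microglial libraries. Its only neighbours that differed were microglia and spleen (adjusted p = 0.00392). Pglyrp1, a secreted protein that binds bacterial peptidoglycan, averaged 12 ± 3.93 TPM in Kupffer, 7.72 ± 2.32 TPM in alveolar, 5.42 ± 1.76 TPM in splenic and 1.43 ± 0.262 TPM in microglial libraries. Of its neighbours, too, microglia and spleen differed (adjusted p = 0.00303), and the 3 peripheral types were not separated.

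Among the classical genes, Fn1, which encodes the matrix protein fibronectin, and Plac8, a small cysteine-rich protein abundant in classical monocytes, were the highest. Fn1 averaged 337 ± 76.5 TPM in alveolar macrophages, 221 ± 198 TPM in Kupffer cells, 5.17 ± 1.12 TPM in splenic macrophages and 0.502 ± 0.417 TPM in microglia. Alveolar and Kupffer levels of Fn1 were not separated (adjusted p = 0.468), and Kupffer lay above splenic (adjusted p = 0.000894). Plac8 gave an order in which every neighbour differed: 203 ± 19.8 TPM in Kupffer, 72.1 ± 23.8 TPM in splenic (adjusted p = 0.0367), 24.6 ± 12.3 TPM in alveolar (adjusted p = 0.0104) and 1.48 ± 0.59 TPM in microglial libraries (adjusted p = 3.23e-05). Ccr2, the receptor for Ccl2, averaged 12.9 ± 4.45 TPM in Kupffer, 5.87 ± 2.13 TPM in alveolar, 3.72 ± 0.406 TPM in microglial and 0.909 ± 0.248 TPM in splenic libraries. It was the only one of the 10 whose lowest WT level was in spleen, below microglia (adjusted p = 0.000792), and its alveolar and microglial levels were not separated (adjusted p = 0.17).

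Ly6c2 encodes the surface antigen by which classical monocytes are sorted, and F13a1 the enzyme subunit of clotting factor XIII. Ly6c2 averaged 9.18 ± 3.01 TPM in alveolar, 2.75 ± 0.56 TPM in Kupffer, 2.75 ± 1.11 TPM in splenic and 0.396 ± 0.351 TPM in microglial WT libraries. Alveolar lay above Kupffer for Ly6c2 (adjusted p = 0.0397), Kupffer and spleen were not separated (adjusted p = 0.884), and spleen lay above microglia (adjusted p = 0.00607). F13a1 averaged 13.2 ± 4.7 TPM in alveolar, 8.84 ± 0.13 TPM in Kupffer, 0.616 ± 1.07 TPM in splenic and 0.108 ± 0.0791 TPM in microglial libraries, and no 2 neighbours in that order differed (adjusted p = 0.75, 0.111 and 0.224). Vcan, a large proteoglycan of the extracellular matrix, stayed at or under 0.363 TPM on average in all 4 types.

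In alveolar macrophages all 6 classical genes had lower fitted levels in KO than in WT, and all 4 non-classical genes had higher ones. None of these 10 differences passed the test of edgeR (adjusted p under 0.05), which called 55 of 17369 genes (0.317%). The unadjusted p was under 0.05 for 5 of the 10, all classical, and DESeq2 called 4 of the 10 (Plac8, Vcan, F13a1 and Fn1), where it called 5.31% of all genes. KO and WT libraries did not overlap for 5 of the 10 genes, all lower in KO, while 11.8% of all tested genes were separated in that direction. The median log2 fold change (KO over WT, as throughout) was -1.27 over the 6 classical genes, also with Vcan at its bound, and 0.34 over the 4 non-classical genes, against -0.01 over all genes tested.

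**Figure D2:**
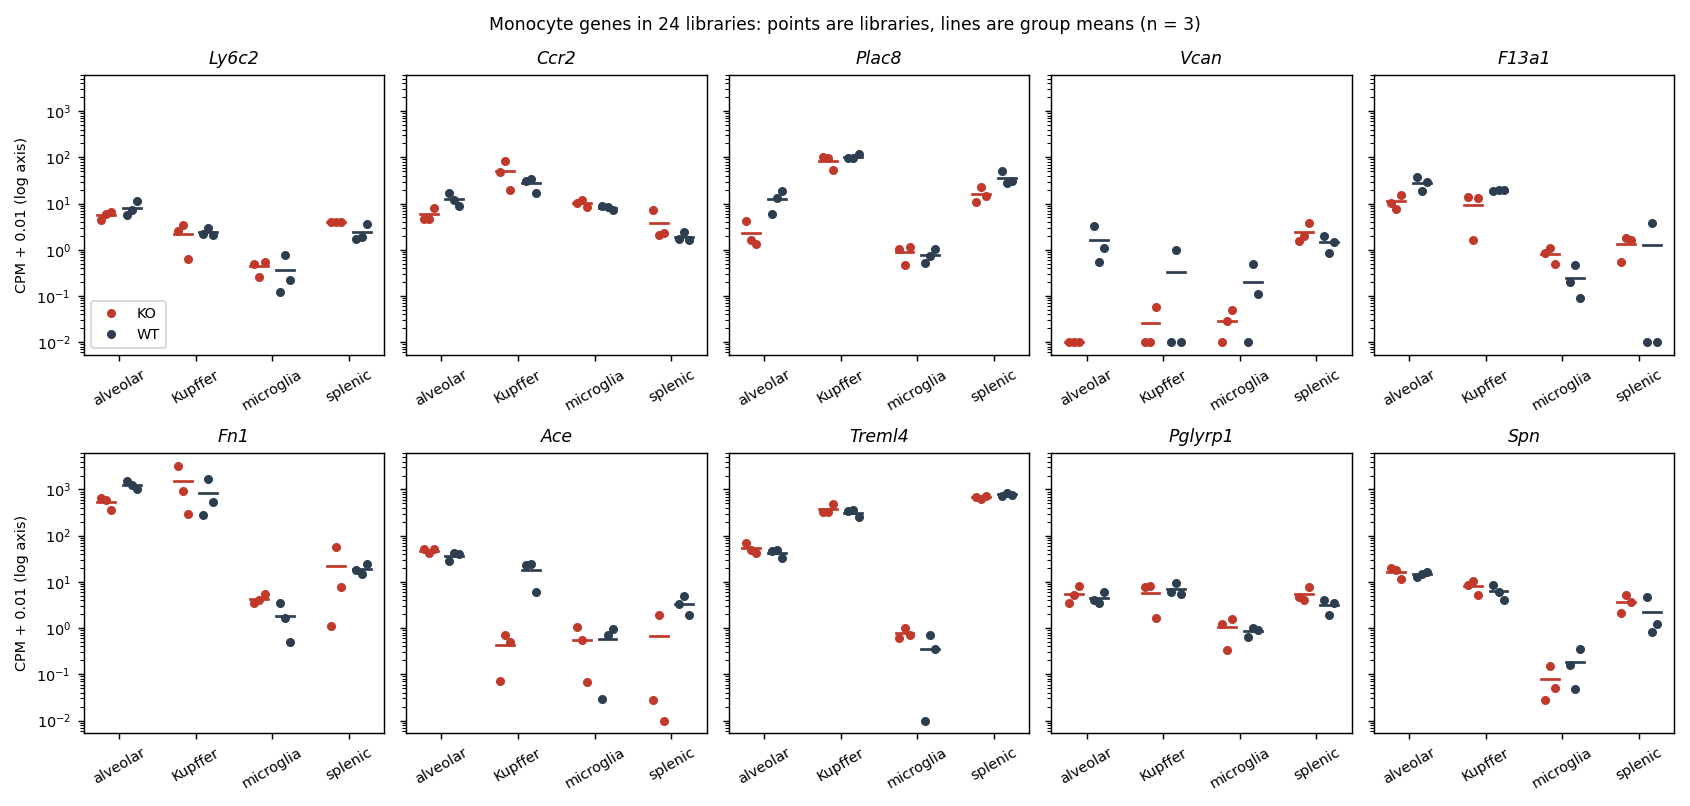
CPM of each of the 10 genes in each of the 24 libraries, on a log axis with 0.01 CPM added, with the 3 KO libraries left of the 3 WT libraries of each cell type; points are libraries and bars are group means. In alveolar macrophages the KO libraries lie below all WT libraries for Ccr2, Plac8, Vcan, F13a1 and Fn1, and in Kupffer cells the 3 KO libraries for Ace lie between 0.0606 and 0.686 CPM, below the 6.01 to 24.3 CPM of the WT libraries.

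Fn1 had 640, 578 and 352 CPM in alveolar KO libraries, against 1504, 1224 and 1027 CPM in alveolar WT libraries. The highest KO library was thus below the lowest WT library, and the fitted log2 fold change was -1.22 ± 0.26 (SE; adjusted p = 0.115, DESeq2 adjusted p = 0.000122). Plac8 had 4.1, 1.6 and 1.35 CPM in KO libraries, against 5.81, 13.2 and 18.9 CPM in WT libraries. All 3 KO libraries were below the WT libraries, whose own values spread more than 3-fold. Its log2 fold change of -2.38 ± 0.60 had an adjusted p of 0.17, and of 0.0157 in a single fit of all 24 libraries, in which Plac8 was the only one of the 10 genes called. That fit called 1.24% of genes in the alveolar contrast.

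F13a1 had 10.1, 7.78 and 15.6 CPM in alveolar KO libraries, against 37.0, 18.7 and 29.3 CPM in alveolar WT libraries, with no overlap (log2 fold change -1.31 ± 0.32, adjusted p = 0.16). Ccr2 had 4.64, 4.59 and 8.17 CPM in KO libraries and 16.9, 12.2 and 8.68 CPM in WT libraries, where the third KO library came close to the lowest WT library (-1.10 ± 0.35 on the log2 scale, adjusted p = 0.256). Vcan was at 0 counts in all 3 KO libraries and at 3.33, 0.528 and 1.07 CPM in the WT libraries. Set against 3 counts over the KO group, the mean CPM of Vcan was at least 97.4-fold lower in KO, a bound that covers counting error only (adjusted p = 0.104). The bound rested on the first WT library, without which it was 47.4-fold. Ly6c2 was the classical gene whose groups overlapped, with 4.42, 5.86 and 6.46 CPM in KO libraries and 5.74, 7.27 and 11.2 CPM in WT libraries (-0.51 ± 0.31, adjusted p = 0.584).

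The non-classical genes were close between genotypes in alveolar macrophages, and all 4 had overlapping groups. Ace had 50.7, 41.1 and 50.7 CPM in KO libraries, against 28.7, 41.5 and 40.4 CPM in WT libraries (0.39 ± 0.19, adjusted p = 0.474). Treml4 had 67.7, 49.3 and 41.7 CPM in KO libraries and 45.5, 47.9 and 33.1 CPM in WT libraries (0.36 ± 0.25, adjusted p = 0.637). The log2 fold changes of Pglyrp1 and Spn were 0.33 ± 0.39 and 0.18 ± 0.25 (adjusted p = 0.818 and 0.854), and their group means lay between 4.54 and 16.4 CPM.

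Other genes of the same pathways were taken from lists. Of 14 further classical monocyte genes, 1 of the 14 tested fell in alveolar macrophages: Ms4a6c, a membrane protein of monocytes and macrophages, had 3.21, 3.06 and 2.56 CPM in KO libraries and 13.1, 15.1 and 10.8 CPM in WT libraries (-2.12 ± 0.26, adjusted p = 0.0346). The median of the 14 was 0.00, near that of all genes. Of 11 further non-classical genes, 10 were tested and 1 fell: Adgre4, an adhesion G-protein-coupled receptor of monocytes and splenic macrophages, had 0, 0.0991 and 0 CPM in KO libraries and 9.92, 10.7 and 8.5 CPM in WT libraries (adjusted p = 0.0346). So 2 of the 3 alveolar KO libraries had no count of Adgre4, while every WT library had over 8 CPM. On the log2 scale 8 of these 10 further genes were below 0 and 2 above. Their median was -0.22, against 0.34 for the 4 non-classical genes followed here.

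Of 6 fibronectin receptors, all tested and all below 0 on the log2 scale, Itga4, an integrin chain that binds fibronectin and Vcam1, fell to 23.5, 21.6 and 30.2 CPM in KO libraries, against 67.9, 61.7 and 59.7 CPM in WT libraries (-1.30 ± 0.15, adjusted p = 0.0263). The median of the 6 receptors was -0.53. The calls of Ms4a6c, Adgre4 and Itga4 were each lost when any 1 of the 6 alveolar libraries was left out (edgeR adjusted p from 0.0679 to 0.199, from 0.0508 to 0.243 and from 0.0614 to 0.182) and with the replicate number as a block (0.202 for all 3), while their signs stayed negative. None of the 4 ligands of Ccr2 was called. All 4 had negative fold changes with a median of -1.48, and Ccl7 had the lowest p of them (-2.09 ± 0.37, adjusted p = 0.0935). None of 9 factors of monocyte development was called either, and Zeb2 had the lowest p (-0.89 ± 0.19, adjusted p = 0.116). Among 17 paralogues of the 10 genes, 13 were tested and 0 called, with the lowest p for Trem1 (0.56 ± 0.16, adjusted p = 0.216).

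Markers of other cells differed in the same alveolar libraries. Of 11 B-cell markers 10 were tested, and 4 of them fell, Ighm among them, with Pax5, Fcer2a and Blk at 0 in KO. Of 7 markers of type 2 dendritic cells, Cd209a fell to 0.0164, 0 and 0 CPM in KO libraries, against 23, 11.7 and 9.57 CPM in WT libraries. The summed level of the 7 overlapped (111 to 196 CPM in KO, 86.1 to 137 CPM in WT). Its largest part was Klf4, with a mean of 108 CPM in KO and 58.8 CPM in WT libraries. On the log2 scale 4 of the 7 were below 0 and 3 above, with a median of -1.22. Of 7 markers of border-associated macrophages all were below 0 and none was called, with sums of 1022 to 1131 CPM in KO and 1203 to 1498 CPM in WT. These sums were mostly Mrc1, which is also among the alveolar markers and averaged 1052 CPM in KO and 1305 CPM in WT. Fibroblasts also make fibronectin, and 5 of their 6 markers were tested, all below 0 and none called, with sums of 44.6 to 88.5 CPM in KO and 76.1 to 138 CPM in WT. Of 13 neutrophil markers 1 rose (Cxcr2), with sums of 620 to 779 CPM in KO and 268 to 449 CPM in WT. Leaving out 1 alveolar library kept the calls of Cd209a and Cxcr2 in 3 of 6 fits each (lost without the second KO, the first WT or the second WT library), and those of the B-cell markers in 0 to 3 of 6. The part of these cells in the alveolar differences was not tested.

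In Kupffer cells the gene that stood apart was Ace. It had 0.0606, 0.686 and 0.487 CPM in KO libraries, against 22.7, 24.3 and 6.01 CPM in WT libraries, which put the mean of KO at 2.33% of that of WT. The 3 KO libraries together held 75 counts of Ace and the 3 WT libraries 3207. The fitted log2 fold change was -5.42 ± 0.91 (95% interval -7.56 to -3.28), with an unadjusted p of 0.000557 and an adjusted p of 0.114. It was the only one of the 9 genes tested here with an unadjusted p under 0.05. By edgeR none of the 9 was called, where 12 of 19085 genes were (0.0629%), and by DESeq2 Ace was called (adjusted p = 5.4e-10), where 2.16% of genes were.

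**Figure D3:**
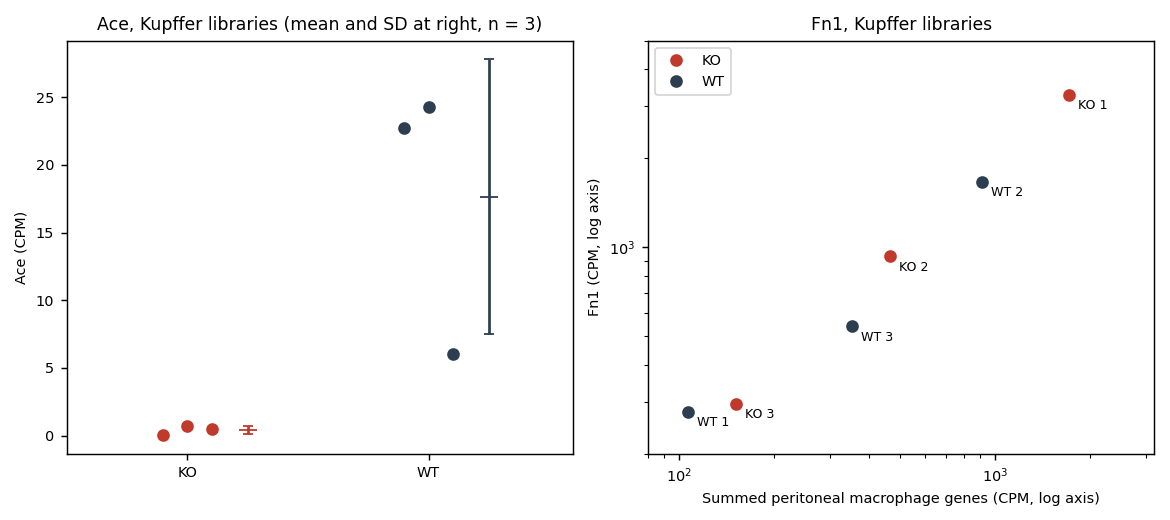
Kupffer libraries one by one, KO in red and WT in dark blue: on the left the CPM of Ace on a linear axis with the mean and SD (n = 3) beside the points, on the right the CPM of Fn1 against the summed CPM of 6 genes of peritoneal macrophages on log axes. The 3 KO libraries lie at or under 0.686 CPM of Ace and the 3 WT libraries at or above 6.01 CPM, and Fn1 has the same rank order as the peritoneal sum in all 6 libraries.

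Ace is also made by endothelial cells, whose transcripts were abundant in these libraries. The sum of 9 endothelial markers was 2526, 3139 and 1167 CPM in Kupffer KO libraries and 3775, 2904 and 3606 CPM in Kupffer WT libraries. All 9 markers were below 0 on the log2 scale with a median of -0.58, none was called and none was at 0. The part of endothelial cells in the level of Ace was not tested. The other non-classical genes did not share the pattern of Ace: Treml4 had 318, 317 and 494 CPM in KO libraries and 339, 360 and 250 CPM in WT libraries (0.28 ± 0.25, adjusted p = 0.909). Spn and Pglyrp1 overlapped as well, with log2 fold changes of 0.35 ± 0.36 and -0.29 ± 0.56 (adjusted p = 0.927 and 0.972). Adgre4 had 611, 576 and 701 CPM in KO libraries and 581, 637 and 430 CPM in WT libraries (adjusted p = 0.896), in contrast to the near absence of its counts in alveolar KO libraries.

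Plac8 had 103, 94.9 and 52.4 CPM in Kupffer KO libraries and 95.2, 97.2 and 118 CPM in Kupffer WT libraries (-0.30 ± 0.24, adjusted p = 0.882). Its groups overlapped. In the same libraries 5 of 11 B-cell markers fell (Cd79a, Pax5, Fcmr, Ebf1 and Blk), each of which stayed called in 1 or 2 of the 6 fits that leave out 1 library, and their part in the level of Plac8 was not tested. Ccr2 had 47.9, 82.4 and 19.9 CPM in KO libraries and 31.3, 34.5 and 17.2 CPM in WT libraries, a spread of more than 4-fold within KO (0.84 ± 0.47, adjusted p = 0.809). F13a1 had 13.7, 1.66 and 13.2 CPM in KO libraries, against 18.3, 19.2 and 19.5 CPM in WT libraries. With Ace it was one of 2 genes whose KO libraries lay below all WT libraries, as 7.04% of all tested genes did, and its fold change was -0.94 ± 0.69 with the second KO library far below the other two (adjusted p = 0.867). Ly6c2 overlapped between 0.633 and 3.4 CPM. Vcan was not tested, with 3 counts in KO and 62 in WT, all 62 in 1 WT library.

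Fn1 varied more between Kupffer libraries of a genotype than between genotypes. It had 3282, 931 and 295 CPM in KO libraries and 277, 1663 and 540 CPM in WT libraries (0.87 ± 0.94, adjusted p = 0.931). Large peritoneal macrophages are rich in Fn1, and 6 of their genes (Gata6, Prg4, Alox15, Selp, Saa3 and Garnl3), listed after these values had been seen, were summed in each library. The sum was 1722, 465 and 151 CPM in KO libraries and 107, 913 and 354 CPM in WT libraries. The ranks of Fn1 and of this sum were the same in all 6 libraries, with 1.53 to 2.59 CPM of Fn1 per CPM of the sum. The part of such cells in the level of Fn1 was not tested.

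Among the genes of the pathway lists, which leave out the markers of other cells, none was called in Kupffer cells. The lowest p of each list belonged to Ms4a4c of the classical genes (-0.80 ± 0.17, adjusted p = 0.217) and to Nr4a1, the factor required for non-classical monocytes (-1.37 ± 0.38, adjusted p = 0.425). For the developmental factors it belonged to Irf8 (0.67 ± 0.15, adjusted p = 0.246), for the Ccr2 ligands to Ccl12 (-0.84 ± 0.35, adjusted p = 0.704), for the fibronectin receptors to Itgb1 (0.22 ± 0.10, adjusted p = 0.746) and for the paralogues to Treml2 (-1.07 ± 0.31, adjusted p = 0.459). The medians of the 14 classical and 10 tested non-classical list genes were -0.04 and -0.17, against 0.00 over all genes.

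Microglia held little RNA of the 10 genes, although some further genes of both subsets were high there. Cx3cr1 of the non-classical list averaged 6646 CPM in KO and 6319 CPM in WT, and Cd14 of the classical list 447 and 509 CPM. Of the 10 genes, only Ccr2 and Fn1 averaged above 1.1 CPM in any group, and Vcan and Spn were too low to be tested. Of the 8 genes tested none was called by edgeR, none had an unadjusted p under 0.05 and none was called by DESeq2, where edgeR called 0 of 17880 genes (0%) and DESeq2 0.52%. Ccr2 had 10.3, 12 and 8.52 CPM in microglial KO libraries, against 8.65, 8.24 and 7.24 CPM in microglial WT libraries (0.35 ± 0.22, adjusted p = 0.987). The groups overlapped by less than 0.2 CPM.

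Fn1 and F13a1 were the 2 genes whose microglial KO libraries lay above all WT libraries, as 5.58% of tested genes did. Fn1 had 3.51, 4.02 and 5.53 CPM in KO libraries and 3.41, 1.68 and 0.493 CPM in WT libraries (1.22 ± 0.63, adjusted p = 0.987). F13a1 had 0.854, 1.09 and 0.476 CPM in KO libraries and 0.186, 0.459 and 0.0789 CPM in WT libraries, or 131 against 38 counts over the groups (1.74 ± 0.81, adjusted p = 0.987). For both genes the lowest KO library lay close to the highest WT library. The sum of 9 endothelial markers was also higher in KO without overlap, with 88.9, 113 and 135 CPM in KO libraries and 56.6, 56.5 and 80.3 CPM in WT libraries and none of the 9 called, and its part in these values was not tested. Of the other genes, Treml4 had 0.6 to 0.995 CPM in KO and 0 to 0.707 CPM in WT libraries, and the remaining 4 tested genes overlapped at 1.59 CPM or less. List genes with the lowest p were Ms4a4c (2.43 ± 1.25), Cebpb (-0.53 ± 0.15), Ccl12 (-0.29 ± 0.17), Itgb1 (0.19 ± 0.14) and Ly6c1 (0.88 ± 0.31), with adjusted p of 0.859 for Cebpb and 0.987 for the others.

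In splenic macrophages Plac8 showed the largest difference relative to its error. It had 10.7, 22.6 and 14.4 CPM in splenic KO libraries, against 49.7, 27.3 and 31.0 CPM in splenic WT libraries, so that every KO library lay below every WT library. The log2 fold change was -1.12 ± 0.34 (adjusted p = 0.259), with DESeq2 giving an adjusted p of 0.0313. By edgeR none of the 10 genes was called, where 133 of 17808 genes were (0.747%). Plac8 alone had an unadjusted p under 0.05, and it was the only one of the 10 that DESeq2 called, where it called 5.07% of genes. All 11 B-cell markers fell in the same libraries and Pax5 was at 0 in KO, with the sums given above, and leaving out 1 library kept each call in 1 to 6 of 6 fits. Summed over 8 markers of plasmacytoid dendritic cells, KO libraries were also lower, with 158 to 172 CPM against 226 to 308 CPM in WT libraries. Of the 7 tested, 5 were below 0 and 2 above. Only Ly6d was called, a call kept in 5 of the 6 fits that leave out 1 library. The part of B cells or of plasmacytoid dendritic cells in the level of Plac8 was not tested.

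Treml4, the most abundant of the 10 genes in spleen, had 673, 635 and 734 CPM in KO libraries and 739, 853 and 772 CPM in WT libraries. The groups did not overlap, but the highest KO and the lowest WT library were less than 6 CPM apart and the fold change was small (-0.18 ± 0.11, 95% interval -0.42 to 0.07, adjusted p = 0.592). Plac8 and Treml4 were the 2 of the 10 genes separated with KO lower, as 11.9% of tested genes were. Ace had 0.0181, 1.94 and 0 CPM in splenic KO libraries and 3.23, 4.97 and 1.88 CPM in splenic WT libraries. The second KO library alone overlapped with WT for Ace, and the fitted value was -2.29 ± 1.61 (adjusted p = 0.657). Without that library it was -8.28 (adjusted p = 0.0633), a fitted value that depends on a group near 0, and without another library it was -2.56 to -1.69.

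Ly6c2 and Pglyrp1 were separated the other way, with KO higher, as 8.02% of tested genes were. Ly6c2 had 4.03, 3.89 and 4.05 CPM in splenic KO libraries and 1.71, 1.86 and 3.57 CPM in splenic WT libraries (0.78 ± 0.37, adjusted p = 0.485). Pglyrp1 had 4.6, 4.07 and 7.67 CPM in KO libraries and 3.97, 1.94 and 3.52 CPM in WT libraries (0.83 ± 0.37, adjusted p = 0.457). Neutrophils store Pglyrp1 in their granules, and of 13 neutrophil markers 4 rose in the same libraries (S100a8, S100a9, Ltf and Ngp), with sums of 644 to 850.5 CPM in KO and 169 to 250 CPM in WT. Each of these 4 calls held in 1 to 4 of the 6 fits that leave out 1 library. The part of neutrophils in the level of Pglyrp1 was not tested.

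The remaining splenic values overlapped and were low or uneven. Fn1 had 1.1, 57.9 and 7.69 CPM in KO libraries and 18.3, 14.7 and 24.1 CPM in WT libraries (0.30 ± 1.11, adjusted p = 0.948), and its highest library was also the highest for the sum of the 6 peritoneal macrophage genes. That library had 0 counts of Gata6, and the ranks of Fn1 and the sum differed among the WT libraries. Per CPM of the sum, splenic Fn1 ran from 0.0833 to 1.32 CPM. On average the splenic sum was mostly Garnl3, with 16 CPM in KO and 14.6 CPM in WT. Ccr2 had 7.15, 2.09 and 2.25 CPM in KO libraries, against 1.71, 2.45 and 1.6 CPM in WT libraries (1.04 ± 0.55, adjusted p = 0.532). Without the first KO library the log2 fold change of Ccr2 was 0.21. Vcan had 1.56, 1.96 and 3.8 CPM in KO libraries and 2.01, 0.84 and 1.46 CPM in WT libraries (0.80 ± 0.49, adjusted p = 0.597), so that spleen was the only cell type with Vcan counts in every KO library. F13a1 was at 0 in 2 of 3 WT libraries and at 3.78 CPM in the other, and had 0.525, 1.78 and 1.61 CPM in KO libraries (adjusted p = 0.993). Spn had 2.15, 5.19 and 3.65 CPM in KO libraries and 4.77, 0.804 and 1.21 CPM in WT libraries (0.77 ± 0.69, adjusted p = 0.736).

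Of the list genes in spleen, Ms4a4c, a membrane protein of monocytes that is also made by lymphocytes, fell to 3.73, 3.04 and 1.9 CPM in KO libraries, against 19.5, 11.2 and 15.6 CPM in WT libraries (-2.36 ± 0.34, adjusted p = 0.0356). It was 1 of 13 further classical genes tested, whose median was -0.30. Ly6a, which encodes the stem cell antigen Sca-1 and lies in the same cluster as Ly6c2, fell to 1.94, 2.75 and 2.39 CPM in KO libraries, against 20.8, 11.3 and 15.4 CPM in WT libraries (-2.69 ± 0.29, adjusted p = 0.012). It was 1 of 12 paralogues tested, and Ly6c2 itself had the opposite sign. Leaving out any 1 of the 6 splenic libraries ended the call of Ms4a4c (adjusted p from 0.0804 to 0.139), and leaving out any of the 3 KO libraries ended that of Ly6a (over all 6 fits, adjusted p from 0.0442 to 0.0731); the block ended both (0.115 for Ms4a4c and 0.104 for Ly6a). No further non-classical gene was called among 10 tested (median -0.15), with the lowest p for Cx3cr1, the fractalkine receptor (-1.70 ± 0.47, adjusted p = 0.222). The lowest p among the factors was that of Nr4a1 (0.42 ± 0.12, adjusted p = 0.249), among the Ccr2 ligands that of Ccl7 (0.57 ± 0.47, adjusted p = 0.713) and among the fibronectin receptors that of Itgb3 (0.45 ± 0.28, adjusted p = 0.613).

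The genotype differences of the 10 genes were then set side by side and compared between cell types in a single fit of all 24 libraries. No interaction of genotype and cell type passed for any of the 10, where 0.524% of 24030 genes did. The unadjusted p was under 0.05 for Ccr2, Plac8, Vcan and Ace (4 genes), and their adjusted p-values were 0.33, 0.222, 0.332 and 0.287. DESeq2 called the interaction for Plac8 alone, where it called 3.98% of genes. The log2 fold changes given next are those of the separate fits of 6 libraries. For Ccr2 they were -1.10 in alveolar macrophages, 0.84 in Kupffer cells, 0.35 in microglia and 1.04 in splenic macrophages (0.21 without its first KO library). Those of Plac8 were -2.38, -0.30, 0.24 and -1.12 in the same order. Those of Ace were 0.39, -5.42, 0.00 and -2.29, so its alveolar libraries had more Ace in KO by the fit while its Kupffer and splenic libraries had less.

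**Figure D4:**
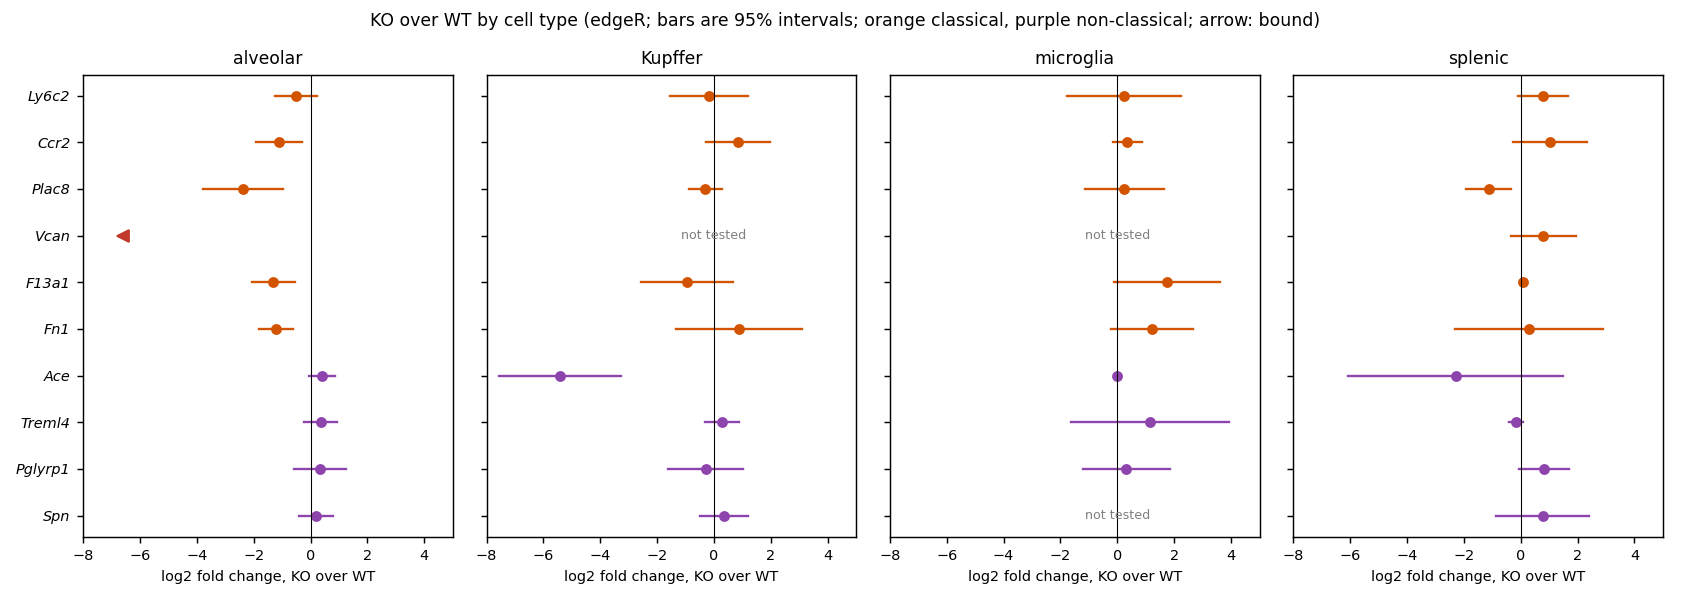
Log2 fold change (KO over WT) of the 10 genes in the 4 cell types from the fits of 6 libraries, with 95% intervals as bars. Orange marks classical and purple non-classical genes, and an arrow marks the alveolar bound of Vcan against 3 counts. A point without a bar had no usable standard error, and genes too low to be tested are labelled as not tested. The alveolar panel has the 6 classical genes below 0 and the 4 non-classical genes above 0, and Ace in Kupffer cells lies at -5.42.

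The mean of the 4 genotype differences did not pass for any of the 10 genes, where 0.624% of genes did. It was -0.89 ± 0.24 for Plac8 (unadjusted p = 0.00132, adjusted p = 0.11) and -1.83 ± 0.59 for Ace (unadjusted p = 0.00606, adjusted p = 0.236). Vcan, whose value depends on libraries at 0, had an unadjusted p of 0.000647 and an adjusted p of 0.0751. These 3 were the genes with an unadjusted p under 0.05, and DESeq2 called Plac8 and Vcan, where it called 2.6% of genes. Leaving out the second splenic KO library, the only KO library of liver or spleen with more than 0.7 CPM of Ace, brought Ace past the threshold in both the interaction and the mean effect. Leaving out the second splenic WT library did so for the interaction of F13a1, the first alveolar KO library for the mean effect of Plac8, and the third Kupffer WT library for that of Vcan.

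Across all 24 libraries, the genes whose log2 CPM followed each of the 10 most closely were read among genes with a mean of at least 1 CPM. These correlations are a description: the 24 points share 4 cell types, which hold most of the variation. Treml4 was followed by Ms4a7 (Pearson r = 0.977) and Nr1h3 (0.976), Spn by Lilr4b (0.969) and Ptpn7 (0.964), and Plac8 by Cd40 (0.968) and Ifi211 (0.954). Ly6c2 was followed by Cish (0.956) and Tubb4b-ps1 (0.94), Fn1 by Pitpna (0.928) and Rab32 (0.928), and F13a1 by Pofut2 (0.891) and F10 (0.864). Ccr2 was followed by Kdr (0.901) and Arhgef15 (0.896), of which Kdr is a receptor of endothelial cells. Pglyrp1 was followed by Ccdc88c (0.89) and Tnfsf14 (0.889), Ace by Bcar3 (0.836) and C77080 (0.824), and Vcan by Btnl10 (0.821) and Btnl4 (0.82). The highest r between any 2 of the 10 genes was 0.845 for Plac8 and Treml4, a classical and a non-classical gene.

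Ly6c2 and its neighbour Ly6c1 are close copies, and 14.9% of the 100-base stretches of Ly6c2 transcripts occur unchanged in Ly6c1 transcripts. The share was 30.8% for stretches of 50 bases and 5.44% for stretches of 150 bases, so it depends on the read length. Reads from shared stretches cannot be assigned by sequence, so the split between the pair is uncertain. Ly6c1, which is also made by endothelial cells, had 3 group means above those of Ly6c2, those of alveolar KO and of both microglial groups: 7.04 CPM for Ly6c1 against 5.58 CPM for Ly6c2 in alveolar KO, 8.43 against 0.426 CPM in microglial KO and 4.62 against 0.364 CPM in microglial WT libraries. Its log2 fold changes were 0.51 ± 0.36 in alveolar macrophages, 0.46 ± 0.71 in Kupffer cells, 0.88 ± 0.31 in microglia and 1.71 ± 0.78 in splenic macrophages, none of which passed the test (adjusted p = 0.653, 0.963, 0.987 and 0.465).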

How the data were processed

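RNA of sorted macrophages was amplified and sequenced per the labels' protocols. DRAGEN, STAR, Salmon, Subread and featureCounts are named in the submitters' processing notes with the mm10 build, with neither roles nor settings (not given in the sources used here). Raw read counts per gene were what the authors deposited, with library-scaled counts (CPM) and length-scaled transcript abundances (TPM) beside them. Deposited CPM were checked against values recomputed from the deposited counts and differed by at most 4.7e-11. Of 55774 rows, 287 repeated a gene with the same values and were dropped, which left 55487 genes. In 4 splenic columns the deposited TPM summed above 1000000 because of the repeated rows, and these columns were treated as a score per transcript length until the repeats were dropped.

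Counts were tested with edgeR 4.0.16 (TMM scaling, quasi-likelihood test) on limma 3.58.1 in R 4.3.3, after a filter for genes with a minimum count of 10 (filterByExpr), with Benjamini-Hochberg adjusted p under 0.05 called. KO was compared with WT in 6 libraries of each cell type. One fit of all 24 libraries gave the interaction and the mean effect, and the 12 WT libraries gave the comparison of cell types. DESeq2 1.42.0, DESeq2 size factors, no filter, a replicate block and leaving out each library were alternatives. All 3-against-3 comparisons have an exact permutation p of at least 0.1, so tests across all genes were used. The scripts were tested on simulated counts. A count of 0 was bounded by 3 counts over the group, which covers counting error only.

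The 10 genes and all lists were chosen with earlier results of these data known. Named beside the 10 were every called gene of 6 pathway lists, otherwise the one with the lowest p in each list and cell type, and the 2 genes of highest Pearson r with each of the 10 (log2 CPM, prior count 2). Gene coordinates are from GENCODE on mm10.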

Additional observations from a re-analysis of the deposited data

Results flagged for a closer look

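For F13a1 the order of KO and WT libraries was opposite in 2 pairs of cell types, with every KO library below every WT library in alveolar macrophages and Kupffer cells and above them in microglia. The ratio of mean CPM, KO over WT, was 0.393 in alveolar macrophages, 0.501 in Kupffer cells and 3.34 in microglia. Fn1 had the same opposite order in alveolar macrophages and microglia, with ratios of 0.418 and 2.34. Of all tested genes, 11.8% in alveolar macrophages and 7.04% in Kupffer cells were separated with KO lower, and 5.58% in microglia with KO higher. The share of all genes with opposite orders in 2 cell types was not computed. The interaction of genotype and cell type over all 4 types did not pass for either gene (edgeR adjusted p = 0.713 for F13a1 and 0.719 for Fn1), and the differences between these pairs of cell types were not tested. In microglia both genes were under 6 CPM in every library.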

How the results depend on the processing

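DESeq2 called 4 of the 10 genes in alveolar macrophages, 1 in Kupffer cells (Ace), 1 in splenic macrophages (Plac8), 1 in the interaction (Plac8) and 2 in the mean effect (Plac8 and Vcan), where edgeR called 0 in each. Without the filter on low counts, edgeR called 2 in alveolar macrophages (Vcan and Fn1), 1 in Kupffer cells (Ace) and 1 in the mean effect (Vcan). The fit of 24 libraries called 1 in alveolar macrophages. Leaving out 1 library gave 0 to 0 genes in each cell type, 0 to 1 in the interaction and in the mean effect, and 9 to 10 between WT cell types. The causes were not tested. Over all genes, alveolar calls numbered 55 by edgeR, 163 without the filter, 297 in the fit of 24 libraries and 922 by DESeq2. In Kupffer cells these 4 settings gave 12, 76, 48 and 413 calls. Microglia had 0, 13, 19 and 93, and spleen had 133, 330, 145 and 903. Leaving out 1 library left 0 to 29 edgeR calls in alveolar macrophages (0 without KO 2 or WT 2, 3 without WT 1, 8 without KO 3, 19 without WT 3 and 29 without KO 1), 0 to 15 in Kupffer cells (0 without any WT library, 1 without KO 1, 4 without KO 3), 0 to 1 in microglia and 18 to 90 in spleen (18 without WT 2, 38 without KO 2, 44 without WT 1, 46 without KO 1, 55 without KO 3). DESeq2 called 957 interactions against 126 by edgeR, and 625 mean effects against 150.

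Samples with the same replicate number did not deviate together, so the numbers were not taken as pairs. Their r ran from -0.0496 to 0.0408 between KO and WT within cell types, and from -0.0209 to 0.073 between cell types within a genotype. With the replicate block, 0 of the 10 genes were called in any genotype comparison and 9 between WT cell types, calls over all genes numbered 0 in alveolar macrophages and 10 in splenic macrophages, and the log2 fold changes of splenic Fn1 and microglial Ace turned to -1.27 and -0.05997. Leaving out a library also turned uncalled fold changes, which ranged from -0.0228 to 0.59 for alveolar Pglyrp1, -0.58 to 0.26 for Kupffer Ly6c2, -0.46 to 1.89 for Kupffer Fn1, -0.0102 to 0.43 for Kupffer Treml4, -0.56 to 0.15 for Kupffer Pglyrp1, -0.17 to 1.36 for microglial Ly6c2, -0.85 to 0.64 for microglial Ace, -0.11 to 0.75 for microglial Pglyrp1, -0.51 to 9.23 for splenic F13a1 and -2.12 to 0.86 for splenic Fn1. Kupffer Ace ranged from -5.93 to -4.90 (edgeR adjusted p from 0.239 to 0.475). With 3 libraries a group, differences of low genes such as Vcan, and of every gene of the 10 but Ccr2 and Fn1 in microglia, were near the limit of detection.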
